A study of Mus musculus with 9 samples.

Results

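The mouse Hox genes were examined in NMuMG cells, an immortalized line of mouse mammary gland epithelial origin. They were taken by symbol, as every gene named Hox with the cluster letter a, b, c or d and a number, which gave 39 genes of the 52459 gene symbols in the files. They form 4 clusters, HoxA with 11 genes on chromosome 6, HoxB with 10 on chromosome 11, HoxC with 9 on chromosome 15 and HoxD with 9 on chromosome 2. RNA-Seq had been done on 9 libraries, 3 each of mock cells carrying the empty vector, cells expressing EPR, and cells expressing EPRSTOPE. EPR is the long noncoding RNA BC030870, which also encodes a small peptide, and EPRSTOPE is a point mutant of it that cannot make the peptide. All cells, mock included, had been stably transfected with a pBICEP-based vector and selected with G418 into pools of transfectants, so a pool may hold many integration events. The libraries carry the numbers 203 to 205 (mock), 206 to 208 (EPR) and 209 to 211 (EPRSTOPE). Whether the 3 libraries of a condition came from separate pools is not given in the sources used here, and p-values then measure only the spread between these libraries.

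Hox genes encode homeodomain transcription factors that give cells their position along the body axis. Within a cluster they lie in the order in which they are used, from the anterior (low-numbered) paralogue groups to the posterior (high-numbered) ones, and many adult epithelial and mesenchymal cells keep part of the pattern of their site of origin. Their proteins bind DNA together with TALE homeodomain partners of the Pbx and Meis families. Polycomb complexes keep clusters silent and Trithorax-group complexes keep them active, while retinoic acid and the Cdx factors act upstream during development. In the mammary gland, several Hox genes are known for roles in branching and in differentiation. In bulk libraries, fewer cells that use a gene and less RNA per cell cannot be told apart.

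The libraries held 5972457 to 11876435 estimated counts, and 3 counts, the smallest amount read here as detection, corresponded to 0.253 to 0.502 CPM (counts scaled to 1000000 per library) in a single library. The transfected RNA followed the labels, with 0 to 2 counts of BC030870 in the mock libraries, 214 to 271 in EPR and 28 to 39 in EPRSTOPE, so the mutant was also present at a lower level than EPR, and the effect of the mutation and of the level cannot be told apart. The label of an epithelial line was checked against markers. *Cdh1*, which encodes E-cadherin, was at 556 ± 13.7 CPM (SD, n = 3) in EPR and 403 ± 22.8 in EPRSTOPE but at 0.843 ± 0.464 in mock, so this defining marker was almost absent from the mock libraries. The keratin gene *Krt8*, the epithelial marker with the highest CPM, was at 2108, 5263 and 5977 CPM on average in mock, EPR and EPRSTOPE. Of 14 epithelial markers 9 were tested, and 9 were higher in EPR and 6 in EPRSTOPE than in mock. Their summed CPM ran from 3710 to 4179 in mock, 9555 to 10660 in EPR and 10740 to 11080 in EPRSTOPE. Of 16 fibroblast or mesenchymal markers 7 were tested, with 1 higher and 5 lower in EPR, and 1 higher and 2 lower in EPRSTOPE. *Vim*, the highest of them, was at 2634, 1768 and 3138 CPM, and the summed CPM ran from 3791 to 3943 in mock, 2094 to 2317 in EPR and 3813 to 4164 in EPRSTOPE. The part of these marker differences in the Hox results was not tested. For scale, 15.2% of all tested genes were called up against mock in EPR and 12.9% down. The shares for EPRSTOPE were 15.6% and 12.4%. The other marker lists were low. Of 8 mammary luminal markers 3 were tested and 1 was lower in each, *Foxa1*, the highest, at 8.15, 0.210 and 0.0739 CPM. Of 7 basal markers 2 were tested, with 2 lower in EPR and 1 in EPRSTOPE, and *Acta2*, the highest in mock, was at 10.1, 1.17 and 0.801 CPM. The other tested basal marker, *Krt14*, had 7, 9 and 8 counts in mock, 0 in each EPR library and 19, 22 and 12 in EPRSTOPE. It was called lower in EPR than in mock and than in EPRSTOPE (edgeR, adjusted p = 0.00075 and 0.0002), and its difference between EPRSTOPE and mock, 1.37 on the log2 scale, did not pass (adjusted p = 0.037). The 4 endothelial, 4 leukocyte and 3 adipocyte markers gave no call in any comparison by edgeR, DESeq2 or limma, with 1 leukocyte marker at an unadjusted p under 0.05 in EPR against mock. *Pecam1*, the highest endothelial marker, was at 11.3, 12.4 and 13.4 CPM, *Cd68* of the leukocyte list was at 1.47, 2.72 and 2.14 CPM, and the adipocyte sum did not pass 1.53 CPM in any library.

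Promoter windows from RefSeq on GRCm38.p6, 250 bases before to 50 bases after a start, were given for 22 of the 39 genes (24 windows). These covered all of HoxD, but in HoxC only *Hoxc4* and in HoxB only *Hoxb1*, *Hoxb4* and *Hoxb8*. *Hoxb3*, *Hoxb5* to *Hoxb7* and *Hoxb9* had no window. The windows held a median of 14.5 CpG dinucleotides, against 7 over 32851 windows of all genes. The windows shown are those of *Hoxb8*, which had no counts in either transfectant, of *Hoxb4*, which had counts in mock and EPR and none in EPRSTOPE, and of the downstream start of *Hoxa10*, the highest HoxA gene. Only the bases upstream of each start are printed, 5′ to 3′ on the strand of the gene, at chr11:96281655-96281904 (+), chr11:96318017-96318266 (+) and chr6:52234940-52235189 (-). Capitals mark matches on either strand to TTTATG (the Cdx motif), TGATNNAT (a Pbx-Hox motif) and TATAAA (the TATA motif), 3 sets of letters that can overlap.
Hoxb8: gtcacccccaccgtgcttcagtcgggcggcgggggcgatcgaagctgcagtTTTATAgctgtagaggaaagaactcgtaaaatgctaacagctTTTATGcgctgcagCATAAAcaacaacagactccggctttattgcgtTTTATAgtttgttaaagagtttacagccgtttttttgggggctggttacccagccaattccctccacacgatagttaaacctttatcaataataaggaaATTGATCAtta
Hoxb4: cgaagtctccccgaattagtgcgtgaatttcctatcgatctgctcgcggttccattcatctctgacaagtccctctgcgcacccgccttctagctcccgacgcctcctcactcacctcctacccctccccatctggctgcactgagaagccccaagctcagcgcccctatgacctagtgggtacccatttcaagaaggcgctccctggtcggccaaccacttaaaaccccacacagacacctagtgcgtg
Hoxa10: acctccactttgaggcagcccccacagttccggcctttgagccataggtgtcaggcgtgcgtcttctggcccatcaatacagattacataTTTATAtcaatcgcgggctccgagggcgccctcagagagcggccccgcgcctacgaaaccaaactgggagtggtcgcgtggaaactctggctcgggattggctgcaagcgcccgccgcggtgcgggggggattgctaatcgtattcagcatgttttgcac
The *Hoxb8* stretch held 2 Cdx matches, 1 Pbx-Hox match and 2 TATA matches, the *Hoxb4* stretch held none of the 3, and the *Hoxa10* stretch held 1 TATA match. Over whole windows, the Cdx motif was found in 5 Hox genes (*Hoxa7*, *Hoxb8*, *Hoxd3*, *Hoxd4* and *Hoxd11*) and in 11.9% of all windows, the Pbx-Hox motif in 4 (*Hoxa2*, *Hoxb1*, *Hoxb8* and *Hoxd11*) and in 8.85%, and TATAAA in 4 (*Hoxa10*, *Hoxb8*, *Hoxd4* and *Hoxd13*) and in 13.6%. The Smad palindrome GTCTAGAC was in none of the Hox windows and in 0.213% of all windows, and the DR5 form of the retinoic acid response element, matched exactly, was in none and in 0.00913%. A match is a description of the letters and does not show that a factor binds there.

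Most of the Hox RNA of mock cells came from the HoxB cluster, and most of that was absent from both transfectants. Summed over the 39 genes, the mock level of 94.0 ± 2.97 CPM (SD, n = 3) compared with 25.4 ± 0.836 in EPR and 8.69 ± 1.83 in EPRSTOPE. HoxB alone was at 80.2, 73.9 and 76.4 CPM in the 3 mock libraries, 3.32, 5.30 and 3.83 in the EPR libraries and 0.847, 1.18 and 1.61 in the EPRSTOPE libraries, with no overlap between any of the conditions. For HoxA the mock libraries gave 16.2, 16.4 and 16.9 CPM, the EPR libraries 22.1, 18.1 and 20.2 and the EPRSTOPE libraries 7.45, 5.45 and 8.40, so it was somewhat above mock in EPR and below it in EPRSTOPE, again with no overlap. HoxB thus made up 81.6% of the Hox counts in mock, 15.8% in EPR and 14.6% in EPRSTOPE, and HoxA 17.7%, 79.9% and 81.6%. Counts within HoxB also differed along the cluster, but not evenly among its anterior genes. The central genes *Hoxb5* to *Hoxb8* held 844 counts in mock, 0 in EPR and 2 in EPRSTOPE, and the posterior pair *Hoxb9* and *Hoxb13* held 1076, 2 and 8. The 4 anterior genes *Hoxb1* to *Hoxb4* held 235, 119 and 20 counts. By gene these were 11, 28 and 17 for *Hoxb1* and 14, 1 and 1 for *Hoxb2*. *Hoxb3* held 112, 3 and 2, and *Hoxb4* held 98, 87 and 0. In HoxA, by contrast, the anterior genes held 229, 214 and 84 counts, the central ones 83, 168 and 27, and the posterior ones 155, 230 and 57. Of the central genes, *Hoxa7* held 10, 121 and 4 counts, *Hoxa5* 41, 40 and 21, and *Hoxa6* 32, 7 and 2. The higher central count in EPR thus came from *Hoxa7* alone, whose difference from mock was not firm, as given below. The HoxA level in EPR also includes these 121 counts. *Hoxa7* was at 4.539, 3.915 and 3.551 CPM in the EPR libraries and at 0, 0 and 0.814 in the mock libraries. With these amounts taken off, the HoxA levels of the EPR and mock libraries overlap.

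**Figure D1:**
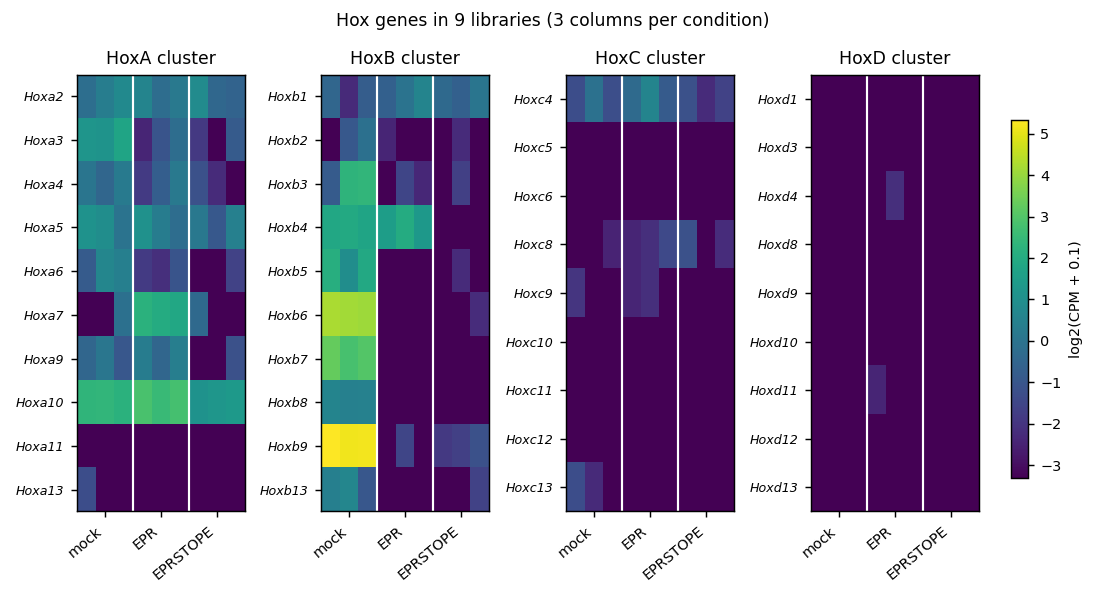
Levels of Hox genes (rows, by cluster and number) in the 9 libraries (columns, 3 per condition) as log2(CPM + 0.1), on 1 colour scale for all 4 panels. The central and posterior HoxB genes are bright in the mock columns alone, *Hoxb4* is bright in mock and EPR, *Hoxa7* in EPR, and nearly all of HoxC and HoxD is at the bottom of the scale.

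Of the 39 genes, 13 passed the filter of at least 1 CPM in at least 3 libraries and were tested, 7 in HoxA and 6 in HoxB. A gene was called where edgeR's quasi-likelihood test gave p under 0.01 after Benjamini-Hochberg adjustment over 15370 genes and the fold change was beyond 0.5 on the log2 scale. In EPR against mock 1 Hox gene was called higher, where 15.2% of all tested genes were, and 6 were called lower, where 12.9% were. In EPRSTOPE against mock none was called higher, where 15.6% were, and 8 were called lower, where 12.4% were. No Hox gene was higher in EPRSTOPE than in mock at an unadjusted p under 0.05, nor by DESeq2 or limma. Both comparisons share the mock libraries. In EPR against EPRSTOPE 4 were called higher, where 6.86% were, and none lower, where 6.35% were; none was lower at an unadjusted p under 0.05, by DESeq2 or by limma. These counts need care, since 6 of the 13 genes (*Hoxa3* and *Hoxb5* to *Hoxb9*) reached 1 CPM in mock libraries alone and 1 (*Hoxa7*) in EPR libraries alone, so that the filter itself chose genes that were high in one condition. *Hoxa4* and *Hoxb4* reached it in mock and EPR, and 4 genes, among them *Hoxa2*, *Hoxa5* and *Hoxa10*, in all 3 conditions. With no filter on low counts, 8 Hox genes were called lower in EPR and 11 in EPRSTOPE, with *Hoxb3* and *Hoxb13* added in both and *Hoxa6* in EPRSTOPE. An exact permutation test of 3 libraries against 3 cannot give a two-sided p below 0.1, which is the value it gave for every gene called with the filter.

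*Hoxb9* (chr11:96271457-96276595 of GRCm38), a posterior gene with a role in mammary development together with its paralogues, was the highest Hox gene of mock cells per length, at 12.9, 13.8 and 12.2 TPM (a value corrected for transcript length) in the 3 libraries. Its counts were 260, 339 and 450 in mock, 0, 2 and 0 in EPR and 1, 2 and 3 in EPRSTOPE, so every mock library lay far above all 6 others. On pooled counts mock was 559-fold above EPR (95% interval 155 to 4625, counting error only) and 149-fold above EPRSTOPE (68.0 to 406), with adjusted p = 2.4e-09 and 4.1e-09 from edgeR's quasi-likelihood test. The difference between EPR and EPRSTOPE did not pass that test (log2 fold change -1.71 ± 0.88, standard error, adjusted p = 0.18), an estimate that rests on 2 and 6 counts.

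The central HoxB genes lie beside *Hoxb9*. In level per length *Hoxb6* and *Hoxb7* came next to it in mock, at 10.3 and 7.03 TPM, while *Hoxb5* and *Hoxb8* were lower, at 1.11 and 0.72 TPM. *Hoxb6* (chr11:96292476-96301569) had 120, 166 and 206 counts in mock, 0 in each EPR library and 0, 0 and 1 in EPRSTOPE, and stood at 10.3 ± 0.873 TPM in mock. Mock was at least 175-fold above EPR, set against 3 counts over the 3 EPR libraries, and 418-fold above EPRSTOPE (74.7 to 16540), with adjusted p = 1.1e-07 and 1.6e-07 by edgeR's quasi-likelihood test. *Hoxb7* (chr11:96286623-96290162), known for effects on growth when overexpressed in breast cells, had 62, 66 and 98 counts in mock and 0 in all 6 other libraries. This placed mock at least 80.4-fold above EPR and at least 64.0-fold above EPRSTOPE (edgeR, adjusted p = 1e-05 and 1.3e-05). *Hoxb5* (chr11:96303336-96306121) had 27, 17 and 45 counts in mock, 0 in EPR and 0, 1 and 0 in EPRSTOPE, at least 31.6-fold and 75.6-fold (13.2 to 3020) below mock, with adjusted p = 7.5e-05 and 0.00019 in edgeR. *Hoxb8* (chr11:96281905-96285315), used to keep myeloid progenitors growing in culture, was low already in mock, with 9, 12 and 16 counts against 0 in the other 6 libraries. It was at least 13.2-fold lower in EPR and at least 10.5-fold lower in EPRSTOPE (edgeR, adjusted p = 0.00061 and 0.00092). For *Hoxb5* to *Hoxb9* no mock library overlapped any library of the transfectants. The calls held in every alternative in which the gene was tested, without any one library included. These genes reached 1 CPM in mock libraries alone, so the filter itself favoured such a separation. The share of all tested genes without overlap was not counted. *Hoxb13*, the most posterior HoxB gene, lies apart from the others and was not tested. It had 8, 14 and 5 counts in mock, 0 in EPR and 0, 0 and 2 in EPRSTOPE.

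**Figure D2:**
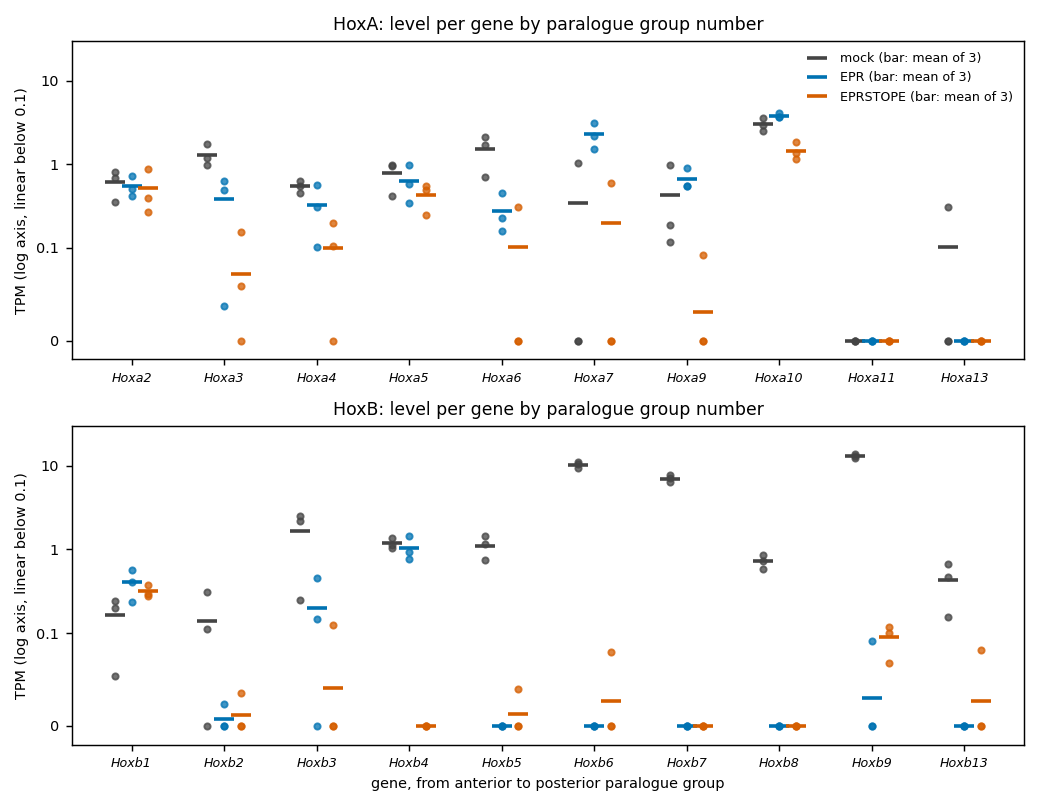
Levels per length (TPM, log axis that is linear below 0.1) of HoxA genes (top) and HoxB genes (bottom) from anterior to posterior, with 1 point per library and a bar at the mean of 3. In HoxB the mock points stand alone from *Hoxb5* on, while *Hoxb4* has mock and EPR points at the same height and EPRSTOPE points at 0. In HoxA the points of *Hoxa7* are highest in EPR, and those of *Hoxa3* and *Hoxa6* are highest in mock.

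The anterior HoxB genes did not share one pattern. *Hoxb4* (chr11:96318267-96321638), best known for its effect on the renewal of blood stem cells, had 23, 35 and 40 counts in mock, 31, 31 and 25 in EPR and 0 in each EPRSTOPE library. The mock and EPR libraries overlapped, at 3.51 ± 0.226 and 2.99 ± 0.826 CPM (SD, n = 3 each), and the difference did not pass (log2 fold change -0.24 ± 0.32, standard error, adjusted p = 0.58 by edgeR's quasi-likelihood test). EPRSTOPE was at least 27.8-fold below mock and at least 23.1-fold below EPR (edgeR, adjusted p = 1.1e-05 and 4.4e-05). This was the one tested HoxB gene whose EPR libraries overlapped the mock libraries. The other tested HoxB genes reached 1 CPM in mock libraries alone, so the filter itself favoured their separation. Of the HoxB genes not tested, *Hoxb1* and *Hoxb2* also overlapped between mock and EPR, and *Hoxb3* and *Hoxb13* did not. *Hoxb3* (chr11:96323326-96347930), the neighbour of *Hoxb4*, was not tested, since 1 mock library was under 1 CPM. It had 3, 46 and 63 counts in mock, 0, 2 and 1 in EPR and 0, 2 and 0 in EPRSTOPE. The gap in the mock library 203 was filled by the overlapping antisense model *Hoxb3os*, which had 27, 1 and 5 counts there. The sum of both models was 4.66, 4.96 and 5.54 CPM in mock and no more than 0.253 CPM in any other library. Whether the quantification used strand is not given in the sources used here, so reads of a gene and of its antisense partner cannot be told apart. With overlapping models summed, a setting chosen after seeing the data, *Hoxb3* was also called lower in both transfectants. *Hoxb2* was scarce, with 0, 4 and 10 counts in mock, 1, 0 and 0 in EPR and 0, 1 and 0 in EPRSTOPE. *Hoxb1*, the most anterior gene, with a role in hindbrain identity, went the other way in its raw values, with 4, 1 and 6 counts in mock, 6, 7 and 15 in EPR and 4, 5 and 8 in EPRSTOPE. The conditions overlapped for *Hoxb1* and it was not tested.

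In HoxA, most genes were expressed at a low level in every condition, and the conditions differed by less than for *Hoxb5* to *Hoxb9*. *Hoxa10* (chr6:52231197-52240854), a posterior gene best known from the uterus, was the highest per length, at 2.99 ± 0.555 TPM in mock, 3.82 ± 0.277 in EPR and 1.45 ± 0.353 in EPRSTOPE (SD, n = 3 each). Its counts were 32, 48 and 55 in mock, 82, 45 and 72 in EPR and 12, 21 and 21 in EPRSTOPE, and once scaled to depth the 3 conditions did not overlap. EPRSTOPE was lower than mock (-1.10 ± 0.22 on the log2 scale, standard error, adjusted p = 0.0015 by edgeR's quasi-likelihood test), a call lost with counts scaled from TPM (-0.89, adjusted p = 0.027; 0.00072 to 0.027 over the alternatives). The difference between EPR and mock did not pass (0.44 ± 0.20, edgeR, adjusted p = 0.093).

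*Hoxa7* (chr6:52214491-52221854), a central gene, was the one Hox gene called higher in EPR than in mock. It had 0, 0 and 10 counts in mock, 52, 31 and 38 in EPR and 4, 0 and 0 in EPRSTOPE, so the EPR libraries lay above all others while mock and EPRSTOPE overlapped. EPR exceeded mock by 3.54 ± 0.87 on the log2 scale (standard error, adjusted p = 0.0051 by edgeR's quasi-likelihood test), and on pooled counts EPR was 11.3-fold above mock (5.96 to 24.3). The call was lost with DESeq2 (adjusted p = 0.13), with counts scaled from TPM (0.1) and without the mock library 203 or 204 or any one EPR library (0.012 to 0.019), out of a range of 1.6e-08 to 0.13 over the alternatives. Without the mock library 205, the only one with counts, EPR against mock went from 3.54 to 8.14 (edgeR, adjusted p = 0.0015), a fitted value against no counts, so the size of the difference rests on that library. Without it, EPRSTOPE against mock also turned from -0.88 to 3.72, and neither value passed. With the overlapping antisense model *Hoxaas3* added, the mock libraries stood at 1.55, 0.9497 and 1.63 CPM, the EPR libraries at 5.32, 4.55 and 4.39 and the EPRSTOPE libraries at 1.53, 0.427 and 0.115, and the difference between EPR and mock was 1.78 on the log2 scale.

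*Hoxa3* (chr6:52169062-52213336), whose product patterns pharyngeal and neck structures, was lower in both transfectants. It had 14, 20 and 40 counts in mock, 1, 3 and 8 in EPR and 1, 0 and 4 in EPRSTOPE, with all mock libraries above all others. The log2 fold changes were -2.62 ± 0.66 for EPR and -3.52 ± 0.77 for EPRSTOPE (standard errors, adjusted p = 0.0059 and 0.0023 by edgeR's quasi-likelihood test). The first call was lost with counts scaled from TPM (adjusted p = 0.13) and without any one of the libraries 203 to 207 (0.011 to 0.029), out of a range of 0.00013 to 0.13, and the second with counts scaled from TPM (0.012) and without the mock library 205 (0.011), out of 4.3e-06 to 0.012. The long span of *Hoxa3* overlaps 6 other gene models, among them *Hoxaas2* and *Hoxaas3*. With these summed, the differences from mock shrank to -1.18 in EPR and -2.08 in EPRSTOPE, and both were still called (edgeR, adjusted p = 0.002 and 5.7e-05). *Hoxa4*, next to it, had 6, 6 and 13 counts in mock, 2, 4 and 11 in EPR and 2, 1 and 0 in EPRSTOPE. EPRSTOPE and mock did not overlap but the difference did not pass (log2 fold change -2.66 ± 0.89, standard error, edgeR, adjusted p = 0.026). *Hoxa2* and *Hoxa5* overlapped in all 3 comparisons, at 1.19, 1.06 and 0.970 CPM and at 1.57, 1.30 and 0.903 CPM in mock, EPR and EPRSTOPE, with log2 fold changes between -0.77 and 0.55 and adjusted p of at least 0.28 in edgeR. These 2 genes were measured with 4 to 23 counts a library, and differences of this size were not detectable at this depth. *Hoxa6* and *Hoxa9*, neither of them tested, held 32, 7 and 2 counts and 18, 31 and 3 counts over the 3 libraries of mock, EPR and EPRSTOPE.

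**Figure D3:**
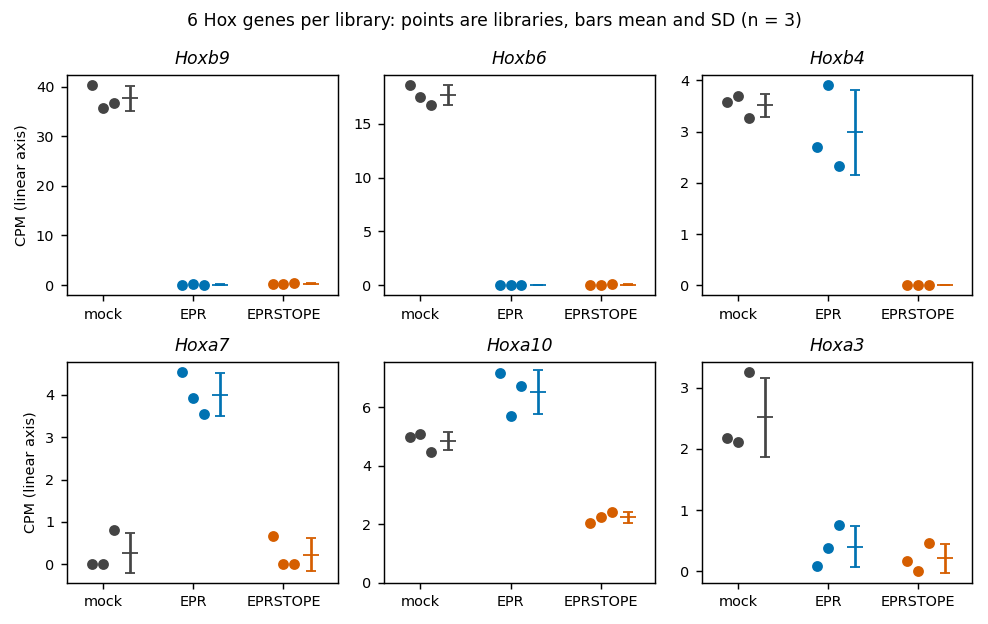
Levels of 6 Hox genes in CPM on linear axes, with 1 point per library and the mean and SD of 3 libraries beside the points. *Hoxb9* and *Hoxb6* are near 0 in both transfectants, *Hoxb4* in EPRSTOPE alone, *Hoxa3* is highest in mock, and *Hoxa7* and *Hoxa10* are highest in EPR.

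HoxC and HoxD were nearly silent in all conditions. *Hoxc4* had the most counts of these 18 genes, with 2, 8 and 4 counts in mock, 8, 11 and 5 in EPR and 2, 1 and 2 in EPRSTOPE, and it was not tested. *Hoxc8* held 1, 5 and 3 counts in all over the libraries of mock, EPR and EPRSTOPE, *Hoxc9* 1, 2 and 0, and *Hoxc13* 3, 0 and 0. HoxD held 2 counts in all, 1 each of *Hoxd4* and *Hoxd11*, both in EPR libraries. Counts of 0 in every library were found for 13 genes, namely *Hoxa11*, 5 of HoxC (*Hoxc5*, *Hoxc6*, *Hoxc10*, *Hoxc11* and *Hoxc12*) and 7 of HoxD (*Hoxd1*, *Hoxd3*, *Hoxd8*, *Hoxd9*, *Hoxd10*, *Hoxd12* and *Hoxd13*). Pooled over the 9 libraries, 0 counts allow a level of up to 0.0365 CPM. *Hoxa13*, the last HoxA gene, had 2 counts, both in the mock library 203. At least 1 count was found for 24 Hox genes in mock, 19 in EPR and 18 in EPRSTOPE.

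The direct comparison of EPR with EPRSTOPE asks which differences go with the intact transcript at its level. The 4 genes called higher in EPR included *Hoxb4*, an anterior HoxB gene, the central *Hoxa7* and the posterior *Hoxa10*. *Hoxb4* had 87 counts over the EPR libraries and 0 over the EPRSTOPE libraries, as given above, and the call held in all 17 alternatives in which it was tested (adjusted p 1.1e-13 to 0.00035). *Hoxa10* differed by 1.54 ± 0.22 on the log2 scale (standard error, adjusted p = 0.00025 by edgeR's quasi-likelihood test) and its call held in all 18 (2.4e-05 to 0.0053). The call of *Hoxa7* was less firm. It differed by 4.42 ± 1.01 (adjusted p = 0.006 in edgeR), and the call was lost with DESeq2, with counts scaled from TPM and without any one of the EPR libraries or the EPRSTOPE library 210 or 211 (1.7e-09 to 0.14 over 17 alternatives). Of *Hoxb5* to *Hoxb9*, with 0 to 3 counts a library in both transfectants, none was called, and differences between EPR and EPRSTOPE could not be seen at this depth.

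Noncoding genes that lie inside the clusters were followed from a list of 15, which also holds the 2 Evx genes at the cluster ends. Of these 12 were in the files and 3 were tested. *Hoxb5os*, antisense to *Hoxb5* and *Hoxb6*, had 14, 16 and 13 counts in mock and 0 in the other 6 libraries, and was called lower in both (edgeR, adjusted p = 0.00073 and 0.0011). *Hotairm1*, in the HoxA cluster, stood at 3.19 ± 0.499, 3.36 ± 0.733 and 3.30 ± 0.544 CPM (SD, n = 3 each) in mock, EPR and EPRSTOPE, with adjusted p of at least 0.81 in edgeR. *Hoxaas2* stood at 1.60, 1.18 and 0.617 CPM with no call. *Hotair*, *Hottip*, *Hoxa11os*, *Haglr* and *Evx1* had 0 counts in every library. The log2 fold changes of the 3 tested ran from -6.88 (*Hoxb5os*) to 0.09 in EPR and 0.07 in EPRSTOPE (*Hotairm1*). Their median, -0.43 in EPR and -1.35 in EPRSTOPE, was the value of *Hoxaas2*, which was not called. Over all tested genes the medians were -0.01 and -0.04.

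The TALE genes, whose proteins pair with Hox proteins on DNA, differed by much less between the conditions than the central HoxB genes. Of 9 listed, 8 were tested. In EPR 3 were lower than mock and none was higher by edgeR (2 at an unadjusted p under 0.05, 1 called by DESeq2 and 0 by limma), and in EPRSTOPE 4 were lower and 1 was higher. The shares of all tested genes were 12.9% lower and 15.2% higher in EPR, and 12.4% and 15.6% in EPRSTOPE. The medians of the 8 TALE genes were -0.60 and -0.77 on the log2 scale. *Pbx3* and *Meis2* fell in both, by 0.72 and 0.95 in EPR and by 0.78 and 0.89 in EPRSTOPE on the log2 scale. *Meis1* fell by 1.31 and *Pknox1* by 0.77 in EPRSTOPE alone as called, with differences from EPR that did not pass (adjusted p = 0.26 and 0.1 in edgeR). *Meis3* rose in EPRSTOPE, from 3.37 ± 1.07 to 11.9 ± 1.57 CPM (SD, n = 3 each), and was lower in EPR than in EPRSTOPE by 0.94 on the log2 scale. *Pbx2* was at 20.4, 22.9 and 26.3 CPM with no call. *Pbx4* was at 0.545, 2.19 and 0.276 CPM, higher in EPR than in EPRSTOPE (adjusted p = 0.0086 in edgeR). It had 22, 28 and 12 counts in EPR and 1, 4 and 2 in EPRSTOPE. By limma, 0 TALE genes were called higher in EPR than in EPRSTOPE.

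Of 28 Polycomb genes, all tested, 2 rose and 8 fell in EPR, and 2 rose and 4 fell in EPRSTOPE. In EPR against EPRSTOPE 1 was higher and 3 were lower, and the medians were -0.17, -0.16 and -0.07 on the log2 scale. Among all tested genes 15.2% rose and 12.9% fell in EPR, and 15.6% and 12.4% in EPRSTOPE. In EPR against EPRSTOPE 6.86% of all tested genes were higher and 6.35% lower. *Pcgf6*, a subunit of a variant repressive complex, was lower in both (-1.52 and -1.68). *Ezh2*, the main H3K27 methyltransferase, went from 100.4 ± 4.21 CPM to 48.8 ± 2.21 in EPR and to 63.2 ± 0.369 in EPRSTOPE (SD, n = 3 each), or -1.04 and -0.67 on the log2 scale. *Cbx6* rose by 0.63 in EPR, and *Cbx6* and *Ezh1* by 0.86 and 0.67 in EPRSTOPE. *Phf19*, an accessory subunit of the methyltransferase complex, had 17, 25 and 39 counts in mock and 35, 24 and 27 in EPR, but 0 in each EPRSTOPE library (edgeR, adjusted p = 1.2e-05 against mock and 3.1e-05 against EPR). Like *Hoxb4*, it was therefore present in mock and EPR and without counts in EPRSTOPE. *Cbx2* and *Kdm2b* were lower in EPR than in EPRSTOPE, by -0.75 and -0.66. Of 12 Trithorax-group and H3K27 demethylase genes, 2 fell in EPR (*Psip1* by 0.60 and *Wdr5* by 0.58) and 2 in EPRSTOPE (*Men1* by 0.86 and *Psip1* by 0.53). None of them rose by edgeR, DESeq2 or limma, with 1 higher at an unadjusted p under 0.05 in each comparison with mock, and none was called between EPR and EPRSTOPE, with 1 higher and 2 lower at that p. In that comparison *Men1* (0.43) and *Wdr5* (-0.32) had adjusted p of 0.0017 and 0.0056 in edgeR and missed a call on the fold cut-off alone.

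A list of 21 upstream genes held the Cdx factors, the retinoic acid pathway, *Gdf11* and *Ctcf*, and 12 of them were tested. *Gdf11* and *Ctcf* were tested and not called. Against mock *Ctcf* was at -0.425 in EPR and -0.20 in EPRSTOPE on the log2 scale (edgeR, adjusted p = 4.6e-05 and 0.0098). It missed a call on the fold cut-off of 0.5 alone. In EPR 5 were called higher and none lower by edgeR, DESeq2 or limma (2 lower at an unadjusted p under 0.05). In EPRSTOPE 5 were called higher and 1 lower, and the medians in EPR and EPRSTOPE were 0.41 and 0.25. Of all tested genes 15.2% rose and 12.9% fell in EPR, and 15.6% and 12.4% in EPRSTOPE. *Cdx2*, a homeobox gene of intestinal epithelium and of the posterior embryo, had 0, 0 and 2 counts in mock, 119, 79 and 117 in EPR and 165, 279 and 183 in EPRSTOPE. It was thus at 10.4 ± 0.480 CPM in EPR and 26.3 ± 4.61 in EPRSTOPE (SD, n = 3 each), and EPR was lower than EPRSTOPE by -1.33 on the log2 scale (edgeR, adjusted p = 0.0002). *Dhrs3*, which reduces retinal, was at 0.529 ± 0.0907 CPM in mock and rose to 10.0 ± 2.43 in EPR and 2.76 ± 0.511 in EPRSTOPE. *Aldh1a1*, which makes retinoic acid, went in opposite directions, with 48.7 ± 3.60 CPM in mock cells against 281 ± 8.08 in EPR and 24.6 ± 3.69 in EPRSTOPE (log2 fold changes 2.54 and -0.98, edgeR, adjusted p = 1.1e-09 and 5.9e-06). *Cyp26b1*, which breaks retinoic acid down, was at 6.61, 6.49 and 13.1 CPM and lower in EPR than in EPRSTOPE by -1.02.

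To see whether genes beside the clusters moved with them, every tested gene within 1 Mb of a cluster end was taken. Outside HoxB 32 genes were tested, of which 5 were higher and 3 lower in EPR and 6 higher and 2 lower in EPRSTOPE, always against mock. The medians were 0.16 and 0.22 on the log2 scale. Over all tested genes 15.2% were higher and 12.9% lower in EPR, and 15.6% and 12.4% in EPRSTOPE. None of the 32 came near the differences of *Hoxb5* to *Hoxb9* in the lower direction. The lowest called were *Socs7* in EPR (-0.59), and *Cbx1* in EPRSTOPE (-0.68, adjusted p = 5.9e-06 in edgeR). *Abi3* and *Gngt2*, which lie next to each other on the *Hoxb13* side, were higher in both, at 0, 2.95 and 6.997 CPM and at 0.158, 0.961 and 5.85 CPM in mock, EPR and EPRSTOPE. *Gngt2* and *Prr15l* were lower in EPR than in EPRSTOPE, by -2.62 and -1.44. Outside HoxA 8 genes were tested, with none called in EPR by edgeR, DESeq2 or limma (2 higher and 2 lower at an unadjusted p under 0.05, genes inside the cluster included) and 1 lower in EPRSTOPE, *Snx10* (46.8, 61.9 and 25.7 CPM in mock, EPR and EPRSTOPE). In EPR against mock *Tax1bp1* (0.29), *Snx10* (0.40), *Hnrnpa2b1* (-0.30) and *Cbx3* (-0.42) had adjusted p of 0.0015 to 0.0097 in edgeR. They missed a call on the fold cut-off of 0.5 alone. *Snx10* and *Skap2* were higher in EPR than in EPRSTOPE by 1.27 and 0.51, where 6.86% of all tested genes were higher and 6.35% lower. *Hibadh*, on the other side of HoxA, was at -0.46 in that comparison with no call, and the median of the 8 genes was 0.17. Around the nearly silent HoxC, 14 of 33 genes were higher and 2 lower in EPR and 16 higher and 1 lower in EPRSTOPE, with medians of 0.49 and 0.56, which lay close to the medians of 0.49 and 0.52 over all tested genes of chromosome 15. *Itgb7* (2.91 and 2.53) and *Zfp385a* (1.78 in EPR) and *Tns2* (1.82 in EPRSTOPE) were the highest, and *Espl1* (-0.98 and -1.88) and *Itga5* (-0.84 in EPR) the lowest. *Espl1* was also the one gene there that was higher in EPR than in EPRSTOPE (0.90). Around HoxD, 10 genes were tested, 1 higher and 1 lower in EPR and 1 higher and 2 lower in EPRSTOPE. *Nfe2l2* was higher by 0.88 and 0.77, *Chn1* lower (-3.66 and -5.51) and higher in EPR than in EPRSTOPE (1.85), and *Hnrnpa3* lower in EPRSTOPE (-0.60).

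**Figure D4:**
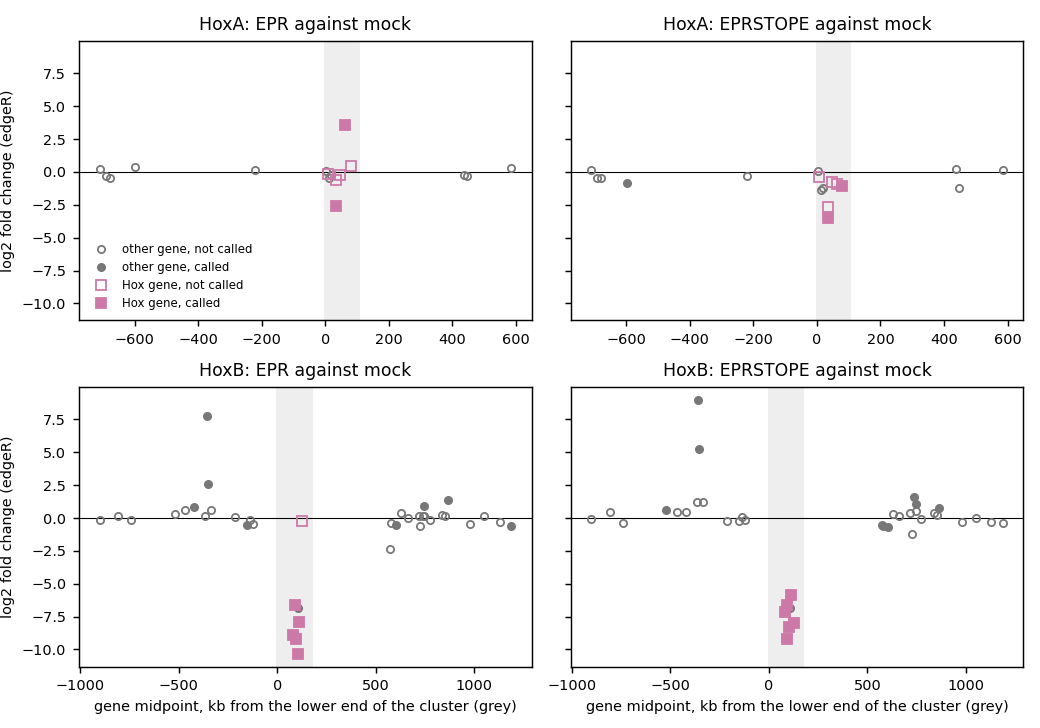
log2 fold changes of tested Hox genes (squares) and of other tested genes within 1 Mb (circles) around HoxA (top) and HoxB (bottom) against the position of the gene's midpoint in kb from the lower end of the cluster, with filled symbols for called genes and the cluster in grey. The lowest values lie inside HoxB, where *Hoxb5os* is the circle among the squares, and most genes on both sides of HoxB lie near 0, with *Abi3* and *Gngt2* the highest. Values below -5 depend on how genes without counts are treated and are no measure of size.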

How the data were processed

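RNA-Seq libraries of NMuMG cells (3 mock, 3 EPR, 3 EPRSTOPE) were analysed. Per the submitters' processing notes, the authors used bcl2fastq 2.0 and kallisto 0.43.1 with GRCm38.p5 (hg38 is also listed), and deposited estimated counts, not normalized, and length-corrected TPM values for 131100 transcripts of Gencode vM15. The labels give TruSeq Stranded Total RNA libraries. Whether strand was used in quantification is not given in the sources used here. Groups were taken from the genotype labels.

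Estimated counts were summed per gene symbol and rounded, since the test needs whole numbers. A gene had to reach 1 CPM in 3 or more libraries. The test was that of edgeR 4.0.16 (quasi-likelihood, TMM, 1 factor of 3 levels, all 9 libraries) in R 4.3.3, with the filter and cut-offs of the study's methods, which applied them to single transcripts with limma-voom, whereas here they were applied to gene sums. Standard errors come from the quasi-likelihood F statistic. CPM values are scaled by TMM. Folds against a condition with 0 counts were set against 3 counts over its libraries, and intervals of pooled counts are 95% and cover counting error only. Positions came from Gencode M21 on GRCm38 and matched all 39 genes. The script was tested on simulated data. Alternatives were DESeq2 1.42.0, limma 3.58.1 with voom, other filters, scalings and sample sets, and leaving out each library in turn.

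The rule named every Hox gene that passed the filter and, from the lists, every tested cluster-embedded and TALE gene, and elsewhere the 2 called genes with the largest increase and decrease per comparison. Of these, 1 gene each of the Hox, TALE and Polycomb lists is counted but not reported or plotted here. The members and lists were chosen with earlier results of these data known.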

Additional observations from a re-analysis of the deposited data

Results flagged for a closer look

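Hox genes whose EPR and EPRSTOPE effects, both taken against mock, differed were flagged by edgeR's direct test of EPR against EPRSTOPE. *Hoxb4* differed by 7.76 on the log2 scale, a fitted value that depends on how the 0 counts of EPRSTOPE are treated (adjusted p = 4.4e-05). *Hoxa10* differed by 1.54, with 0.44 in EPR and -1.10 in EPRSTOPE against mock. *Hoxa7* differed by 4.42 (adjusted p = 0.006), a call that several alternatives lost.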

How the results depend on the processing

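Of 620 values recomputed under an alternative for 37 results, 579 kept their direction and their side of the thresholds, 34 lost a call and 7 changed sign, none of the 7 being a call. Of the genes called higher in EPR than in mock (1), none was left with DESeq2, with at least 10 counts in every library or with counts scaled from TPM, and leaving out 1 library gave 0 to 1. The filter of at least 10 counts left 1 Hox gene, *Hoxa10*, to be tested, so it gave 0 of the 6 lower in EPR, 1 of the 8 lower in EPRSTOPE and 1 of the 4 higher in EPR than in EPRSTOPE. Counts scaled from TPM gave 5 lower in EPRSTOPE than mock and 2 higher in EPR than in EPRSTOPE. In that last comparison, leaving out 1 library gave 2 to 3. The sign changes came from leaving out 1 library, except that *Hoxb4* in EPR against mock was at 0.009 with counts scaled from TPM. Over the left-out libraries the log2 fold changes ran from -0.44 to 0.12 for *Hoxa2* and from -0.71 to 0.10 for *Hoxa5* in EPR against mock, from -4.73 to 3.72 for *Hoxa7* in EPRSTOPE against mock, and from -0.035 to 0.81 for *Hoxa2* and from -2.58 to 0.0 for *Hoxb6* in EPR against EPRSTOPE. Except for the filter and the left-out libraries, the cause was not tested. No paired analysis was possible because the conditions share no replicate numbers. Depth limits the low genes, since 3 counts are 0.253 to 0.502 CPM in a library.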
